A study of Rattus norvegicus with 6 samples.

Results

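The 10 hypoxia response and glycolysis genes described here are Hif1a, Egln3, Bnip3, Adm, Hk2, Pfkfb3, Ldha, Pgk1, Slc2a3 and Pdk1, taken as the rows of the deposited count table whose symbol equals one of these names. Each name matched 1 row, giving 10 of the 22396 genes in the table. Their RNA was measured in tissue of the basal temporal lobe, with 1 sequencing library for each of 3 SAH + 6-gingerol rats and 3 SAH + PBS rats. All were adult male Sprague-Dawley rats with subarachnoid hemorrhage (SAH), made by injecting the animal's own femoral artery blood into the cisterna magna. The SAH + 6-gingerol rats received 10 mg/kg of 6-gingerol, a phenol from ginger, into the peritoneum 1 h post-SAH, and the SAH + PBS rats received the phosphate-buffered saline vehicle in the same way. Tissue was taken 24 h post-SAH. No sham library was analysed here, so the comparison shows how treated and untreated SAH rats differed and not how SAH itself changed these genes. In the tables, columns headed Control are the SAH + 6-gingerol libraries, as the treatment in the sample titles shows.

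Cells sense low oxygen through hypoxia-inducible factor (HIF), a pair of an oxygen-labile alpha subunit such as the product of Hif1a and a stable beta subunit. When oxygen is plentiful, prolyl hydroxylases mark the alpha subunit for destruction through the von Hippel-Lindau protein, and when oxygen is scarce the pair binds DNA and raises genes of glucose uptake, glycolysis, blood vessel growth and mitochondrial removal. In brain, astrocytes and endothelium are rich in the transporters and enzymes of glycolysis and lactate export, whereas neurons take up glucose mainly through the transporter encoded by Slc2a3. The alpha subunit is regulated chiefly as a protein, which RNA counts do not measure.

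In edgeR's quasi-likelihood test with Benjamini-Hochberg adjustment over 17096 genes, 0 of the 10 genes passed an adjusted p of 0.05, where 0.0175% of all genes tested did. At an unadjusted p under 0.05, Adm, Hk2 and Pfkfb3 were lower and Egln3 was higher in SAH + 6-gingerol rats, against a background of 8.71% of all genes lower and 5.22% higher at that limit. DESeq2, the other count test run, called 2 of the 10, Adm lower and Egln3 higher, where it called 3.92% of all genes. The abundant glycolytic enzymes Ldha and Pgk1 differed little between the groups, with log2 fold changes of -0.19 and -0.05. For Hif1a, Adm, Hk2, Pfkfb3 and Ldha the size of the difference between the groups depended on SAH + PBS replicate 2. That rat had the highest value of the 6 rats for each of them.

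HIF binds short core motifs in DNA, ACGTG and GCGTG, so the promoters of the genes with an unadjusted p under 0.05 and of Ldha are shown with every copy of the motifs in capitals. The sequences are RefSeq's on the rat build GRCr8, from 250 bases before to 50 bases after the annotated start, and the table held 8 of the 10 genes. Slc2a3 and Pgk1 are named only. Both strands were searched, so that CACGT and CACGC are the motifs on the opposite strand, and CACGTG counts as ACGTG on each strand.
Adm, chr1:174179950-174180249, plus strand: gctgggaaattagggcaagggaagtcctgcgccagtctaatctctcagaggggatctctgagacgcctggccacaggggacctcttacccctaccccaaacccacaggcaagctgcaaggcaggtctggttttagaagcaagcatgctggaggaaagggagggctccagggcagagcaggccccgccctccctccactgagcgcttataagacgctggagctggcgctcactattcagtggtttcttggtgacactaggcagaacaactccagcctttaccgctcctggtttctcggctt
Hk2, chr4:116841226-116841525, minus strand: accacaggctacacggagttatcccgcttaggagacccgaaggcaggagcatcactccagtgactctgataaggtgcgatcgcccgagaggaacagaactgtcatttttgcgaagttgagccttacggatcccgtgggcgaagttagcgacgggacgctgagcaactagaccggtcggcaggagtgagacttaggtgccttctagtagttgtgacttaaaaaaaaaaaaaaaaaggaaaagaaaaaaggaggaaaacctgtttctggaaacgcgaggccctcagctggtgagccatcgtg
Egln3, chr6:77410966-77411265, minus strand: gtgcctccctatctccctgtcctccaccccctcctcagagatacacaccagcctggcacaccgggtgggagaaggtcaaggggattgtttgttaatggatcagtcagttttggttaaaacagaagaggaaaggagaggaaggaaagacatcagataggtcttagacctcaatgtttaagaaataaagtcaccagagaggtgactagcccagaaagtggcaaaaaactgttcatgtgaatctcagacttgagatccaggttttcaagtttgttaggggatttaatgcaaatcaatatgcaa
Pfkfb3, chr17:71944683-71944982, plus strand: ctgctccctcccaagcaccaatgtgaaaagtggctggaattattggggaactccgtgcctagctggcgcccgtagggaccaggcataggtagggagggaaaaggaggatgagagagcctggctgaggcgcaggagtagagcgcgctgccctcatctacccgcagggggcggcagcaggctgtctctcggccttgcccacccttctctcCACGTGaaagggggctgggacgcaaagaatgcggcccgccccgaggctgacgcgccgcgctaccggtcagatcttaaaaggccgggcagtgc
Ldha, chr1:106507842-106508141, plus strand: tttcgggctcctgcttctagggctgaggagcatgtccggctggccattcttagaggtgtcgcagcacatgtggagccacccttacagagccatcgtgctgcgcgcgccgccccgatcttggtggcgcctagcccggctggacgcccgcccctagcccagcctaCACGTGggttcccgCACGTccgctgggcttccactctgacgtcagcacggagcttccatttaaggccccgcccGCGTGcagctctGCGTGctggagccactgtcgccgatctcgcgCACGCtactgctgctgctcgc
The windows of Adm, Hk2 and Egln3 held 0 copies of either motif, that of Pfkfb3 held 2 and that of Ldha held 6. Of the 3 windows not printed, Hif1a held 3, Bnip3 4 and Pdk1 4. At least 1 copy stood in 5 of the 8 windows, and in 41.6% of all 33469 promoters in the table, and ACGTG alone in 5 of 8 and in 19.3% of all. The 3 genes lower at an unadjusted p under 0.05 thus include 1 with the motif in this window and 2 without it. A match marks letters only, and its absence says only that these letters are not in this window.

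The libraries held 62762808 to 66761380 counts in the SAH + 6-gingerol rats and 64053899 to 65606360 counts in the SAH + PBS rats, so depth was similar. Values below are CPM, a gene's share of the library's counts, scaled by edgeR's TMM factors, log2 fold changes are SAH + 6-gingerol over SAH + PBS, and errors are standard errors (SE) of the fit or standard deviations (SD) over n = 3 rats. SAH + PBS replicate 2 stood apart in several cell type marker lists. The summed level of 10 neutrophil markers was 7.92, 8.46 and 8.49 CPM in SAH + 6-gingerol rats, against 36.8, 248.8 and 30.7 CPM in the SAH + PBS rats, with Cxcr2 at 0 counts in all 3 treated rats. Summed endothelial markers (9 of 10 found) reached 255 to 279 CPM with 6-gingerol, against 290, 683 and 301 CPM with PBS, and macrophage markers (9 of 10 found) 129 to 158 CPM against 135, 554 and 171 CPM. Summed neuron markers (10 of 10 found) ran from 10224 to 10643 CPM with 6-gingerol, against 7256, 4145 and 8103 CPM with PBS, and astrocyte markers (10 of 10 found) from 3535 to 4087 CPM, against 5113, 7262 and 5470 CPM. The astrocyte sum rested on a few abundant genes, since 3 of the 10 were lower with 6-gingerol and their median log2 fold change was 0.14. Oligodendrocyte markers (9 of 9 found) had 7007, 3685 and 5286 CPM with 6-gingerol, against 5272, 2642 and 3503 CPM with PBS. Red cell markers (6 of 8 found) had 976, 613 and 670 CPM, against 331, 1399 and 514 CPM. Microglia markers (9 of 10 found) did not set SAH + PBS replicate 2 apart, at 318 to 328 CPM against 338, 320 and 313 CPM. Choroid plexus and ependyma markers (9 of 10 found) followed other rats, with 30.1, 23.1 and 20.7 CPM in the treated rats, against 1150, 34.5 and 354 CPM in SAH + PBS replicates 1 to 3, and all 8 tested were lower with 6-gingerol. The part these cell types played in the values below was not tested, and in bulk tissue fewer cells of a type cannot be told apart from less RNA per cell.

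The oxygen-labile subunit gene Hif1a (ENSRNOG00000008292, chromosome 6, 96810907 to 96856052, Rnor_6.0) had 105, 104 and 99.96 CPM in SAH + 6-gingerol replicates 1 to 3, against 108, 237 and 93.6 CPM in SAH + PBS replicates 1 to 3. The groups overlapped, and 5 of the 6 rats lay between 93.6 and 108 CPM, with SAH + PBS replicate 2 at 2.35 times the mean of replicates 1 and 3 of its group. The log2 fold change was -0.51 (SE 0.35, edgeR adjusted p = 0.473). Without that rat it was 0.03 (SE 0.09, edgeR adjusted p = 0.922), within its SE of 0.

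Egln3 (ENSRNOG00000005053, chromosome 6, 75050329 to 75075795) encodes the prolyl hydroxylase PHD3, which acts on the HIF alpha subunit and is itself induced by HIF. It had 26.9, 31.6 and 27.5 CPM in SAH + 6-gingerol rats, against 20.1, 20.3 and 19.98 CPM in the SAH + PBS rats. Every treated rat was above every untreated rat, and the untreated rats were nearly equal. Its log2 fold change was 0.51 (SE 0.12, unadjusted p = 0.00418, edgeR adjusted p = 0.338), and in DESeq2 it was 0.52 with an adjusted p of 0.0132. Leaving out SAH + PBS replicate 2 gave 0.52, and across 19 alternative settings the value stayed between 0.35 and 0.56.

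**Figure D1:**
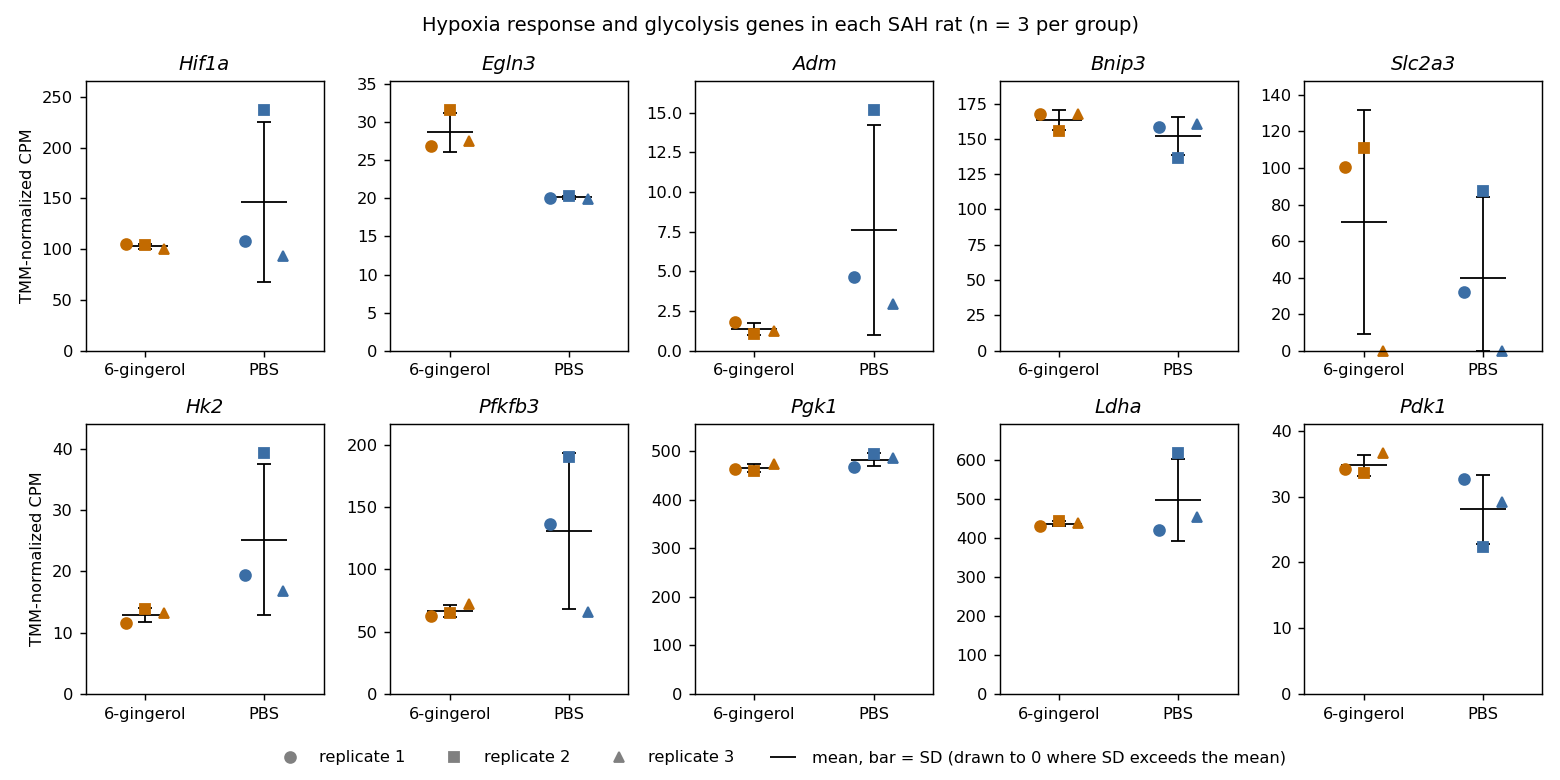
TMM-normalized CPM of the 10 genes in each rat, with SAH + 6-gingerol on the left and SAH + PBS on the right of each panel. Symbols mark the replicate, lines the mean and bars the SD over 3 rats, cut at 0, and SAH + PBS replicate 2 is the highest of the 6 rats for Hif1a, Adm, Hk2, Pfkfb3, Ldha and Pgk1.

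Adm (ENSRNOG00000027030, chromosome 1, 175445088 to 175447259) encodes the precursor of adrenomedullin, a peptide that widens blood vessels and a known target of HIF. It had 1.81, 1.06 and 1.27 CPM in SAH + 6-gingerol rats, from 114, 68 and 76 counts, against 4.66, 15.2 and 2.97 CPM in SAH + PBS rats, from 317, 1045 and 196 counts. All 3 treated rats were below all 3 untreated rats, among which replicate 2 had 3.98 times the mean of replicates 1 and 3. Adm was the only one of the 10 past both an unadjusted p of 0.05 and a 2-fold change, where 4.69% of all genes were past both limits lower and 0.731% higher. Without SAH + PBS replicate 1 there were 2 such genes, Hk2 being added, where 5.7% of all genes were past both limits lower, and without SAH + PBS replicate 3 there were 3, with Pfkfb3, where 7.29% of all genes were. It was -2.46 (SE 0.65, unadjusted p = 0.00807, edgeR adjusted p = 0.343), and the DESeq2 adjusted p was 0.00357. Without SAH + PBS replicate 2 it was -1.47 (SE 0.34, edgeR adjusted p = 0.141), still with no overlap.

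Bnip3 (ENSRNOG00000017243, chromosome 1, 211248098 to 211265282) encodes an outer mitochondrial membrane protein that marks mitochondria for removal under hypoxia. Its level was 168, 155 and 167 CPM in SAH + 6-gingerol rats, against 159, 136 and 161 CPM in the SAH + PBS rats. The groups overlapped, and here SAH + PBS replicate 2 was the lowest of the 6. The log2 fold change of 0.11 (SE 0.11, edgeR adjusted p = 0.62) was 0.03 without that rat. With scaling by library totals it turned to -0.01, where the median of all genes was -0.15, against -0.03 with TMM. The difference in Bnip3 was within the spread between rats.

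Hk2 (ENSRNOG00000006116, chromosome 4, 113559427 to 113610243) encodes the inducible hexokinase, which traps glucose in the cell by phosphorylation. It had 11.6, 13.8 and 13.3 CPM in SAH + 6-gingerol rats, against 19.4, 39.3 and 16.8 CPM in the SAH + PBS rats. The groups did not overlap, and SAH + PBS replicate 3 was nearest to the treated rats. In edgeR the log2 fold change was -0.97 (SE 0.33, unadjusted p = 0.0255, edgeR adjusted p = 0.347), and -0.49 (edgeR adjusted p = 0.185) without SAH + PBS replicate 2.

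Pfkfb3 (ENSRNOG00000018911, chromosome 17, 70684134 to 70713726) encodes the enzyme that makes fructose-2,6-bisphosphate, the activator of the committed step of glycolysis. It had 62.7, 64.9 and 72.0 CPM in SAH + 6-gingerol rats, against 136, 190.4 and 65.8 CPM in the SAH + PBS rats. SAH + PBS replicates 1 and 2 were above every treated rat, whereas replicate 3 lay within the treated range. With all rats the log2 fold change was -0.98 (SE 0.36, unadjusted p = 0.0314, edgeR adjusted p = 0.349). It was -0.60 (edgeR adjusted p = 0.378) without SAH + PBS replicate 2 and -1.30 (edgeR adjusted p = 0.0864) without SAH + PBS replicate 3.

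Further down the pathway, Pgk1 (ENSRNOG00000058249, chromosome X, 77263359 to 77279367), phosphoglycerate kinase, the first ATP-yielding enzyme of glycolysis, had 464, 459 and 474 CPM in SAH + 6-gingerol rats, against 468, 494 and 487 CPM in the SAH + PBS rats. The groups overlapped by SAH + 6-gingerol replicate 3 and SAH + PBS replicate 1 alone, and the log2 fold change was -0.05 (SE 0.10, edgeR adjusted p = 0.784). Ldha (ENSRNOG00000013009, chromosome 1, 102900286 to 102909707), the lactate dehydrogenase subunit that favours making lactate, had 430.4, 443 and 438 CPM with 6-gingerol, against 420.5, 618 and 454 CPM with PBS. The treated rats lay close together, with SAH + PBS replicate 1 below them and replicates 3 and 2 above them, replicate 2 farthest. The log2 fold change of Ldha was -0.19 (SE 0.16, edgeR adjusted p = 0.567) and 0.00018 without that rat. A near copy on chromosome 8, RGD1562690 (33075211 to 33076206), described in the table as Ldha-like, took 695 to 799 counts in treated and 797 to 1348 in untreated rats, and adding it left the value at -0.19.

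Pdk1 (ENSRNOG00000001517, chromosome 3, 58530870 to 58558027) encodes a kinase that switches off pyruvate dehydrogenase and so keeps pyruvate out of the mitochondrion. It had 34.1, 33.7 and 36.6 CPM in SAH + 6-gingerol rats, against 32.7, 22.3 and 29.3 CPM in the SAH + PBS rats. The groups did not overlap, and SAH + PBS replicate 2 was the lowest of the 6. Its log2 fold change was 0.31 (SE 0.16, edgeR adjusted p = 0.4), and 0.17 without that rat. Pdk1 and Egln3, both usually grouped with genes that hypoxia raises, thus had higher values in treated rats while Adm and Hk2 had lower ones.

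**Figure D2:**
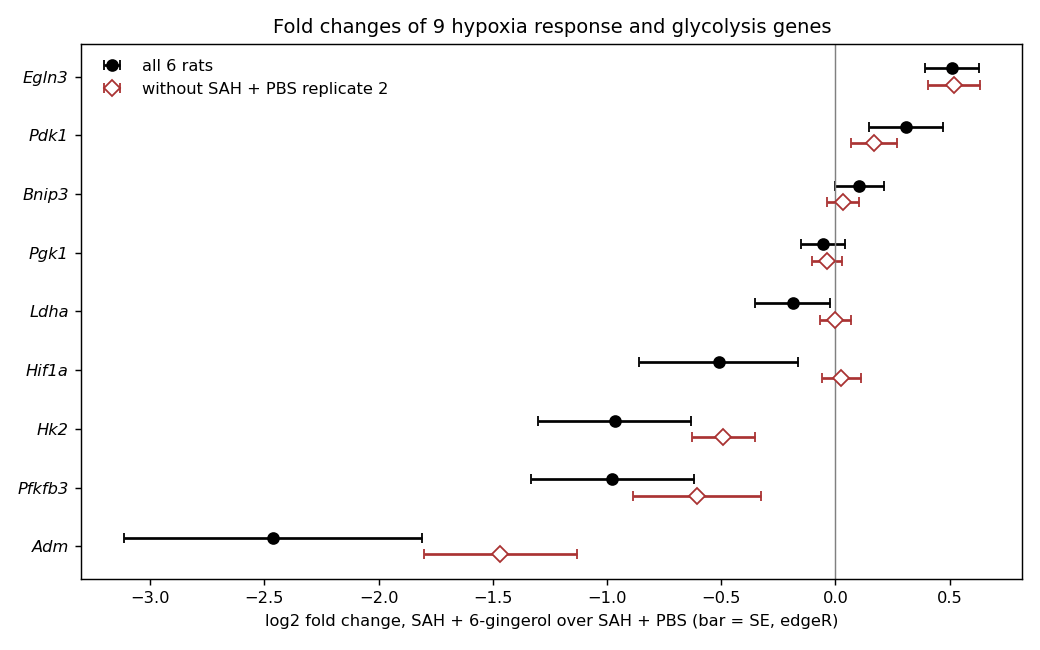
Log2 fold change with its SE from edgeR for 9 of the 10 genes, from all 6 rats (filled) and without SAH + PBS replicate 2 (open). Hif1a is at -0.51 with all rats and 0.03 without that rat, Adm at -2.46 and -1.47, and Egln3 at 0.51 and 0.52. Slc2a3 is left out because it was listed at 0 in 1 rat of each group.

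Slc2a3 (ENSRNOG00000008376, chromosome 4, 155408233 to 155631856), the neuronal glucose transporter GLUT3, could not be compared in the same way. It had 6337, 7134 and 0 counts in SAH + 6-gingerol rats, against 2195, 6014 and 0 counts in the SAH + PBS rats. Both replicate 3 libraries were at 0, whatever the treatment. The Slc2a3 model also spans 2 other genes, Gdf3 and Nanog, with 4 and 8 counts in SAH + PBS replicate 3 and 0 in every other library. Over the whole table, 185 genes were at 0 in 1 to 5 libraries, with a median of at least 100 counts elsewhere. Of these, 4 were at 0 in exactly the 2 replicate 3 libraries. A gene model on the same chromosome, LOC100909595 (155752447 to 155763500), described as Slc2a3-like, took 2589, 3093 and 3074 counts in the treated rats and 3933, 2491 and 3310 counts in the untreated rats. Slc2a3 thus made up 71.0%, 69.8% and 0% of the sum of both with 6-gingerol, and 35.8%, 70.7% and 0% with PBS. LOC100909595 stood at 51.4 CPM in SAH + 6-gingerol replicate 3 and at 50.1 CPM in SAH + PBS replicate 3. Across the other libraries it ran from 36.2 to 57.9 CPM. The copy thus stayed inside that range where Slc2a3 was at 0, and the sum of both was lowest in these libraries. Whether reads shared by the copies were split between them was not tested, nor was the cause of the zeros. The log2 fold change of Slc2a3 was 0.82 with an SE of 2.19 (edgeR adjusted p = 0.857), and 0.42 (edgeR adjusted p = 0.664) with the copy added, so no direction can be read.

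**Figure D3:**
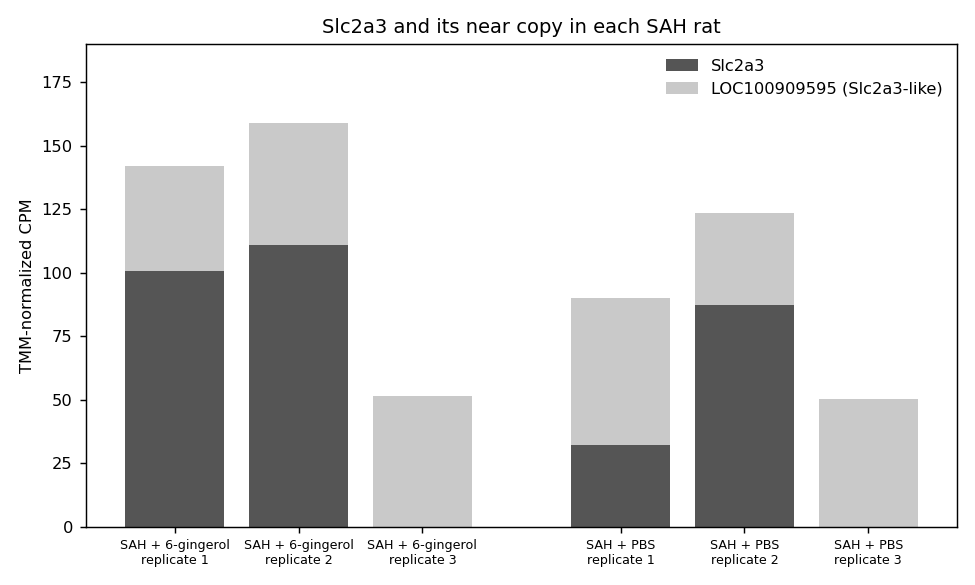
Stacked bars of TMM-normalized CPM for Slc2a3 (dark) and LOC100909595 (light) in each rat, with SAH + 6-gingerol on the left and SAH + PBS on the right. The sum was 142, 159 and 51.4 CPM in the treated rats and 90.1, 123 and 50.1 CPM in the untreated rats, and both replicate 3 bars hold no Slc2a3.

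Over the 10 genes, 4 had no overlap between groups, Adm and Hk2 lower and Egln3 and Pdk1 higher. Among all genes tested 13.4% were lower and 13.8% higher without overlap. With 3 rats against 3 the 2-sided exact permutation test reached its smallest possible p of 0.1 for these 4 genes and gave 0.2 to 0.7 for the other 6. Lower values with 6-gingerol by log2 fold change were found for 6 of 10 genes, against 53.1% of all genes, and the median was -0.12, against -0.03 for all genes. Without SAH + PBS replicate 2 the median of the 10 was 0.01 and 0 of 10 were called, where 0.524% of all genes were.

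SAH + PBS replicate 2 was the highest of the 6 rats for 6 of the 10 genes (Hif1a, Adm, Hk2, Pfkfb3, Ldha and Pgk1), where it was highest for 36.1% of all genes. Among the 3 SAH + PBS rats alone, the order with replicate 2 highest and replicate 3 lowest held for 6 of the 10 genes (Hif1a, Egln3, Adm, Hk2, Pfkfb3 and Slc2a3) and for 26.5% of all genes. In Egln3 these 3 rats were nearly equal, and in Slc2a3 replicate 3 was at 0. The SD over 3 rats was smaller in the treated than in the untreated group for 8 of the 10 genes and larger for 2. It was 2.45 CPM for Hif1a and 4.86 CPM for Pfkfb3 in treated rats, against 79.0 and 62.5 CPM in untreated rats. The exceptions were Egln3, at 2.58 against 0.17 CPM, and Slc2a3, at 61.3 against 44.1 CPM. Over all genes the treated libraries also lay closer together, with a chi-square per gene of 37.5 to 43.7 between pairs of libraries. Pairs of SAH + PBS libraries had 86.7, 337 and 451, with the larger values in the pairs that held replicate 2. The share of all genes with a smaller SD in treated rats was not counted.

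Levels of different genes were compared per gene length, as the deposited FPKM. In the SAH + 6-gingerol rats Pgk1 (264 ± 2.63 FPKM, SD, n = 3) and Ldha (262 ± 4.63 FPKM) headed the order and did not differ beyond their spread. Bnip3 followed at 96.8 ± 3.77 FPKM, then Hif1a at 24.7 ± 0.71, Pdk1 at 21.1 ± 0.84, Pfkfb3 at 13.5 ± 0.92, Egln3 at 9.76 ± 0.92, Hk2 at 2.27 ± 0.21 and Adm at 0.95 ± 0.27 FPKM. Among these 9 genes only Pgk1 and Ldha had overlapping ranges, whereas Slc2a3, from 0 to 27.1 FPKM, spanned every gene from Hif1a down. In the SAH + PBS rats Ldha (325 ± 78.5 FPKM) and Pgk1 (297 ± 14.3 FPKM) again overlapped at the top, above Bnip3 at 97.6 ± 6.15 FPKM. Below them the range of Pfkfb3 (29.2 ± 14.6 FPKM) overlapped those of Hif1a (38.6 ± 22.03 FPKM) and Pdk1 (18.5 ± 3.13 FPKM), which did not overlap each other. Egln3 (7.44 ± 0.28 FPKM), Adm (5.80 ± 5.20 FPKM) and Hk2 (4.87 ± 2.53 FPKM) overlapped at the bottom, and Slc2a3 ran from 0 to 23.8 FPKM.

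Other genes of the same pathways were read from 5 lists. Over all genes, 8.71% were lower and 5.22% higher at an unadjusted p under 0.05 in edgeR, and DESeq2 called 3.92%. Of 15 other HIF subunits and regulators, 0 were called by edgeR or by DESeq2, 2 were lower at an unadjusted p under 0.05 and 0 higher, and the median log2 fold change was -0.06. By sign alone 6 were higher and 9 lower with 6-gingerol. Vhl, the von Hippel-Lindau protein that recognises hydroxylated HIF, had 53.2, 52.3 and 53.1 CPM in the treated rats, against 81.1, 115 and 60.0 CPM in the SAH + PBS rats. The groups did not overlap, and the log2 fold change was -0.69 (SE 0.23, edgeR adjusted p = 0.347), or -0.42 without SAH + PBS replicate 2. Egln1, the main prolyl hydroxylase, had -0.51 (SE 0.21), or -0.29 without SAH + PBS replicate 2, and so differed in sign from Egln3, while Egln2 had 0.10 (SE 0.12). The partner subunits also differed in sign, with -0.29 (SE 0.13) for Arnt and 0.41 (SE 0.18) for Arnt2, the form rich in neurons, which was 0.26 without SAH + PBS replicate 2. Epas1, the HIF alpha subunit of endothelium, had 0.31 (SE 0.24), but 0.045 without SAH + 6-gingerol replicate 2 and 0.47 without SAH + PBS replicate 2. Adjusted p-values from edgeR for these 5 genes lay between 0.358 and 0.681.

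Of 24 other genes known to be induced by hypoxia, 23 were tested, 16 were lower and 7 higher, 9 were lower at an unadjusted p under 0.05 and 0 higher, and 0 passed the adjusted p in edgeR. DESeq2 called 5 of them, Vegfa, Ddit4, P4ha2, Angptl4 and Stc2, all lower. Its calls over all genes were also mostly lower, with 508 lower and 160 higher. The median log2 fold change of the 23 was -0.31, or -0.30 without SAH + PBS replicate 2. Vegfa, the growth factor of blood vessels, had 94.1, 91.5 and 95.8 CPM in SAH + 6-gingerol rats, against 195, 176 and 121 CPM in the SAH + PBS rats. The groups were well separated, SAH + PBS replicate 1 was highest, and the log2 fold change of -0.81 (SE 0.18, edgeR adjusted p = 0.334) was -0.75 without replicate 2. Ddit4, an inhibitor of the growth kinase mTOR, had 60.0, 59.2 and 53.2 CPM with 6-gingerol, against 86.3, 73.9 and 92.9 CPM with PBS. In Ddit4 it was replicate 2 that was lowest among the SAH + PBS rats, and the log2 fold change was -0.55 (SE 0.12, edgeR adjusted p = 0.334), or -0.64 without that rat, where it passed (edgeR adjusted p = 0.0495). Angptl4, a secreted inhibitor of lipoprotein lipase, had 12.1, 8.20 and 9.41 CPM in treated rats, against 49.7, 99.1 and 20.1 CPM in untreated rats. Its log2 fold change was -2.51 (SE 0.56, edgeR adjusted p = 0.334), or -1.82 without replicate 2. Bnip3l, the close relative of Bnip3, had 0.24 (SE 0.17, edgeR adjusted p = 0.493), with overlapping groups, and 0.073 without SAH + PBS replicate 2 or 0.38 without SAH + PBS replicate 3.

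**Figure D4:**
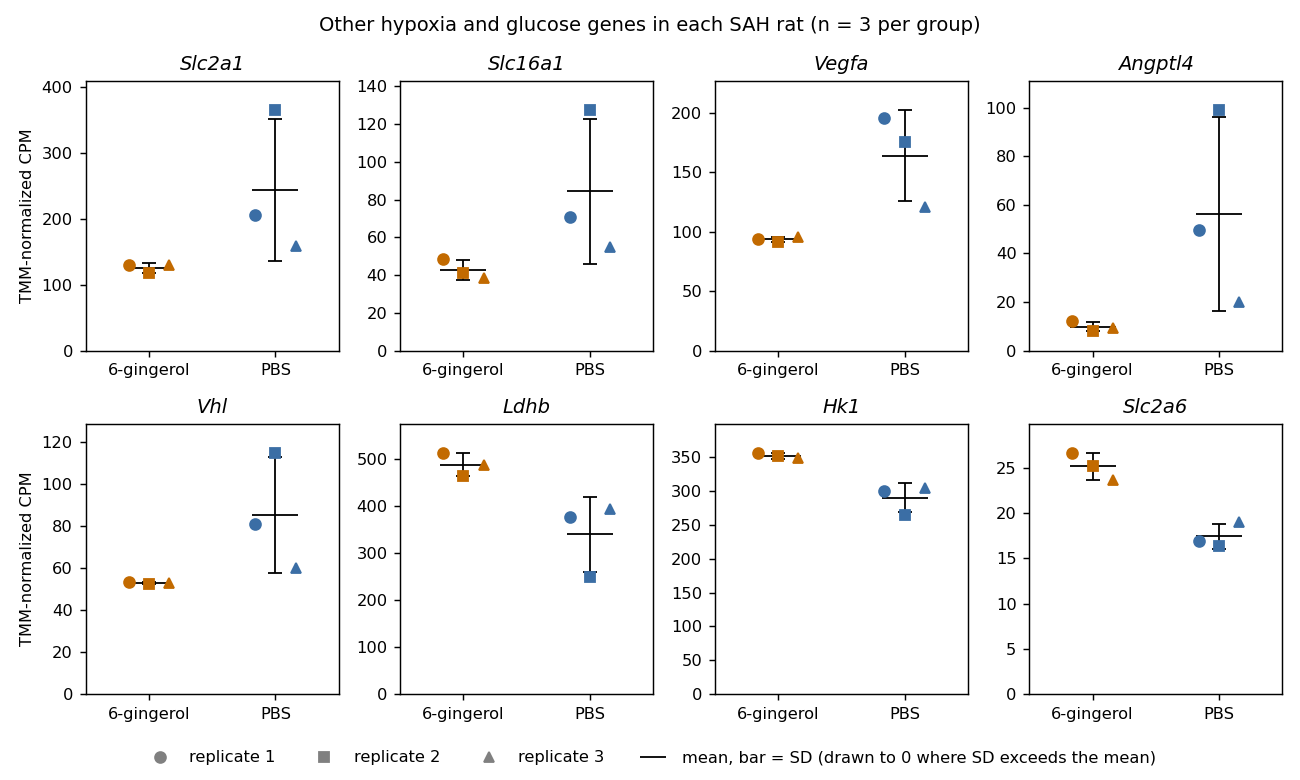
TMM-normalized CPM of 8 further hypoxia and glucose genes in each rat, SAH + 6-gingerol left and SAH + PBS right, with the mean and SD over 3 rats. The groups do not overlap in any of the 8, where 27.2% of all genes tested had no overlap. Named genes with overlapping groups, such as Epas1, Egln2 and Bnip3l, are not drawn. Slc2a1, Slc16a1, Angptl4 and Vhl are highest in SAH + PBS replicate 2, Vegfa is highest in SAH + PBS replicate 1, and Ldhb, Hk1 and Slc2a6 are higher in every treated rat than in any untreated rat.

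Of 19 other glycolytic enzymes, 13 were higher and 6 lower with 6-gingerol, 0 were called by edgeR or by DESeq2, 2 were lower and 2 higher at an unadjusted p under 0.05, and the median log2 fold change was 0.16, or 0.074 without SAH + PBS replicate 2. Hk1, the hexokinase of neurons and most other cells, had 356, 352 and 349 CPM in SAH + 6-gingerol rats, against 301, 265 and 305 CPM in the SAH + PBS rats. It did not overlap and had a log2 fold change of 0.28 (SE 0.10, edgeR adjusted p = 0.349), opposite in sign to Hk2. Ldhb, the subunit that favours using lactate, had 513, 464 and 488 CPM in treated rats, against 377, 249 and 395 CPM in untreated rats, and 0.52 (SE 0.19, edgeR adjusted p = 0.349), or 0.34 without SAH + PBS replicate 2, where Ldha had -0.19. Hk3, the hexokinase of myeloid cells, had 0.064, 0.25 and 0.12 CPM in treated rats, against 0.66, 17.2 and 0.27 CPM in untreated rats. The log2 fold change of Hk3 was -5.38 (edgeR adjusted p = 0.347), or -1.69 without SAH + PBS replicate 2. That rat, with 17.2 CPM, also had the highest neutrophil and macrophage markers, and a link between these values was not tested. Pfkl, the liver-type phosphofructokinase, had -0.31 (SE 0.11, edgeR adjusted p = 0.347).

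Of 12 other glucose and monocarboxylate transporters, 6 were higher and 6 lower, 4 were lower and 3 higher at an unadjusted p under 0.05, 0 were called by edgeR and 1 (Slc2a6) by DESeq2. Their median log2 fold change was -0.19, or -0.0065 without SAH + PBS replicate 2. Slc2a1, the glucose transporter GLUT1 of endothelium and astrocytes, had 130.4, 117 and 129 CPM in SAH + 6-gingerol rats, against 206, 365 and 159.6 CPM in the SAH + PBS rats. Its groups did not overlap, and the log2 fold change was -0.95 (SE 0.30, edgeR adjusted p = 0.347), or -0.54 (edgeR adjusted p = 0.136) without SAH + PBS replicate 2. Slc16a1, the lactate transporter MCT1, had 48.4, 40.9 and 38.6 CPM in treated rats, against 70.5, 127 and 54.9 CPM in untreated rats, with -0.98 (SE 0.31, edgeR adjusted p = 0.347), or -0.56 without that rat. Slc2a6, a hexose transporter of lysosomes, went the other way, with 26.6, 25.2 and 23.7 CPM in treated rats, against 16.9, 16.4 and 19.0 CPM in untreated rats. Its log2 fold change was 0.53 (SE 0.12, edgeR adjusted p = 0.338).

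Of 16 other genes that set fructose-2,6-bisphosphate or pyruvate dehydrogenase, 15 were tested, 9 were higher and 6 lower, 0 were past an unadjusted p of 0.05 in edgeR or called by DESeq2, and the median log2 fold change was 0.02. The other bisphosphate enzymes had 0.29 (SE 0.15) for Pfkfb2 and 0.02 (SE 0.42) for Pfkfb4, whose sign turned in 10 of 19 alternative settings, against -0.98 for Pfkfb3. The other pyruvate dehydrogenase kinases had 0.26 (SE 0.25) for Pdk2, 0.25 (SE 0.12) for Pdk3 and -0.66 (SE 0.31) for Pdk4, against 0.31 for Pdk1. Pdk2 was 0.031 without SAH + PBS replicate 2 and 0.53 without SAH + PBS replicate 3. Pdha1, the catalytic subunit that these kinases act on, had 0.27 (SE 0.13), and Mpc1, part of the mitochondrial pyruvate carrier, 0.30 (SE 0.13). Leaving out SAH + PBS replicate 2 also brought Pfkfb2 to 0.17, Pdk3 to 0.17 and Pdha1 to 0.17. For all of these 7 genes edgeR's adjusted p lay between 0.359 and 0.982.

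**Figure D5:**
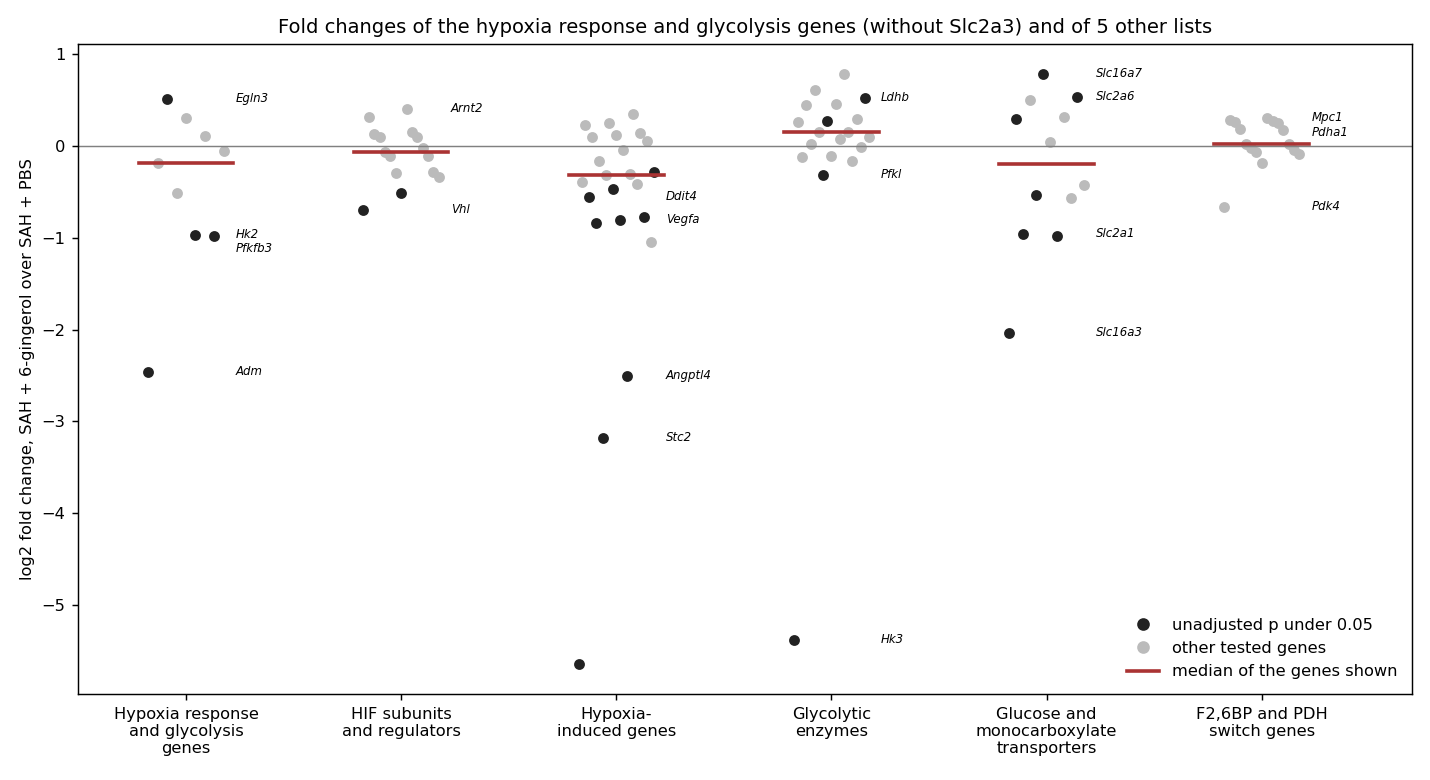
Log2 fold change of each tested gene in the 5 other lists and of 9 of the 10 genes described here, with dark points for an unadjusted p under 0.05 in edgeR and a line at each list's median. The 9 genes have a median of -0.19 with Adm lowest at -2.46, the hypoxia-induced genes a median of -0.31 with 9 dark points, all negative, and the glycolytic enzymes a median of 0.16. Stc2, Slc16a3 and Slc16a7 were chosen for a name in the plot after their values were seen.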

How the data were processed

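The authors deposited a table of counts per gene and a table of FPKM (counts divided by 1 length per gene and by the library total, to within 0.0164%) for 22396 genes. In the submitters' processing notes stand limma 3.32.10, StringTie 1.3.3b, HISAT2 2.1.0 and the build Rnor_6.0, without roles, whereas the study's methods name STAR and DESeq2. Neither the read counter nor the strandedness is stated in them, so near copies and antisense genes may share reads.

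Counts were compared with edgeR 4.0.16 in R 4.3.3, with filterByExpr (minimum count 10, minimum total 15), TMM factors, glmQLFit, glmQLFTest and Benjamini-Hochberg adjustment over 17096 genes, called at an adjusted p under 0.05. SE is the log2 fold change divided by the root of F. Labels do not say whether rats shared a litter or day. The p-values set the difference between groups against the spread between these rats, taken as independent.

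The 10 genes and the 5 lists were chosen with earlier results of these data known. Named were the 10 genes, the 3 of smallest p in each list and the closest relatives by name. P4ha2 and Stc2 are named as DESeq2 calls. Slc16a3 and Slc16a7 were named after their values were seen.

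Alternatives were DESeq2 1.42.0, limma-voom (limma 3.58.1), scaling by library totals or RLE, no filter, 1 CPM in every library, limma on log2(FPKM + 1), with and without a filter of FPKM 0.5 in 3 libraries, and on log2(FPKM + 0.1) with it, same-symbol models summed, a replicate block, and leaving out each rat. After seeing the data, leaving out both replicate 3 libraries and summing near copies were added. Gapdh was matched by identifier.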

Additional observations from a re-analysis of the deposited data

How the results depend on the processing

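Of the 10 genes, 0 were called with all rats, and 0 under every alternative, the replicate block included, except DESeq2, which called 2. The number past an unadjusted p of 0.05 and 2-fold was 1 with all rats, where 927 of all genes were past both. It was 2 with 1 CPM in every library (524 of all genes) and 3 with library totals (1119 of all genes). Without both replicate 3 libraries it was 3 (1180 of all genes). With each rat left out it was 1 to 3. It was 2 without SAH + PBS replicate 1 (1172 of all genes) and 3 without SAH + PBS replicate 3 (1573 of all genes). The number without overlap was 4 (27.2% of all genes), then 8 without both replicate 3 libraries (58% of all genes) and 4 to 7 with each rat left out (34.3% to 49.2% of all genes), since fewer rats overlap less often. The median of the 10 stayed negative except without SAH + PBS replicate 2 (0.01).

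Genes called over the whole table were 3, but 0 with 1 CPM in every library, with both replicate 3 libraries left out and with the replicate block, 5 on log2(FPKM + 0.1), 668 in DESeq2 and 0 to 91 with each rat left out. Genes past an unadjusted p of 0.05 and 2-fold were 927, then 524 with 1 CPM in every library, 330 on log2(FPKM + 1), 326 on it unfiltered and 560 to 1573 with each rat left out. Library totals moved the median of all genes to -0.15, against -0.03 with TMM. FPKM is also scaled by library totals. There the median was -0.10 on log2(FPKM + 1), -0.06 on it unfiltered and -0.12 on log2(FPKM + 0.1). Values under library totals or on FPKM should be read relative to these medians.

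List medians moved as follows. The HIF list was -0.19 with library totals, -0.14 on log2(FPKM + 0.1), -0.13 on log2(FPKM + 1), filtered or not, and -0.12 to -0.014 with each rat left out. The hypoxia-induced list was -0.44 on log2(FPKM + 0.1) and -0.44 to -0.25 with each rat left out. The glycolytic list was 0.0093 on both FPKM scales with the filter. The transporter list was -0.31 with library totals, -0.073 without both replicate 3 libraries and -0.27 to -0.0065 with each rat left out. The list of bisphosphate and pyruvate dehydrogenase genes was -0.11 with library totals, 0.078 with limma-voom, -0.0025 with 1 CPM in every library, -0.042 on log2(FPKM + 1), -0.041 on log2(FPKM + 0.1), -0.053 on log2(FPKM + 1) unfiltered, -0.047 without both replicate 3 libraries, 0.073 with the replicate block and -0.026 to 0.19 with each rat left out.

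Slc2a3 left the table under 1 CPM in every library. Signs turned for few genes. Bnip3 was -0.012 with library totals and -0.010 on the 3 FPKM fits, and Egln2 was -0.018 in the same 4 settings. Without SAH + PBS replicate 2, Hif1a was 0.026 and Ldha 0.00018, and over each rat left out Hif1a ran from -0.75 to 0.026 and Ldha from -0.29 to 0.00018. Pfkfb4 was -0.11 with library totals, -0.0025 with 1 CPM, -0.065 on log2(FPKM + 1), filtered or not, -0.083 on log2(FPKM + 0.1), -0.034 without both replicate 3 libraries and -0.26 to 0.37 with each rat left out. Leaving out a rat changes the samples, and the cause of the other moves was not tested.

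Replicate numbers are shared by the groups. Correlations of deviations were -0.04, 0.01 and 0.01 for equal numbers, and -0.04 to 0.04 for unequal numbers. With 3 rats per group these values cannot show whether rats of equal number were handled together. The replicate block gave 0 calls over all genes and left Adm at -2.10 and Egln3 at 0.51. Apart from Slc2a3, at 0 counts in both replicate 3 libraries, relative counting error was largest for Adm, with 68 to 114 counts in treated rats.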
